A study of Homo sapiens with 42 samples.

Results

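The replication-dependent histone genes are the genes whose transcription is tied to S phase and which carry the symbols H1-1 to H1-5 or H2AC, H2BC, H3C and H4C followed by a number. Of 68 such symbols in GENCODE 44, 64 had a row in both count tables, which list 58243 genes. They were 5 H1, 15 H2A, 18 H2B, 11 H3 and 15 H4 genes, and 52 of them lie on chromosome 6, 11 on chromosome 1 and 1, H4C16, on chromosome 12. H2AC18, H2AC19, H3C2 and H3C3 were not analysed here.

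The cells were K562, 1 established human line from a chronic myeloid leukemia that depends on the BCR-ABL1 kinase. Poly(A) mRNA was sequenced from untreated cells (CTRL), from cells given 1 µM of the BCR-ABL1 inhibitor imatinib for 1, 6 or 18 h (IM 1h, IM 6h, IM 18h), from cells given 5 µM JTE-607 for 1, 6 or 18 h (JTE 1h, JTE 6h, JTE 18h) and from cells given 110 mM KCl, a hyperosmotic stress, for 1 or 3 h (KCl 1h, KCl 3h). Nuclear RNA depleted of rRNA was sequenced from CTRL, IM 1h, IM 18h, JTE 1h and KCl 1h cells. Each of the 14 groups had 3 libraries, 42 in all, which the labels number as biological replicates, so the tests measure the spread between these.

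Replication-dependent histone genes supply the protein needed to package new DNA: H2A, H2B, H3 and H4 form the nucleosome core, and H1 binds the linker DNA. Their mRNAs mostly lack introns and end in a conserved stem-loop instead of a poly(A) tail. Stem-loop-binding protein (SLBP) and the U7 snRNP position the cut after the stem-loop, and the nuclease CPSF73, encoded by CPSF3 and the known target of JTE-607, makes it. A poly(A) library therefore selects for histone transcripts that carry a tail, whereas nuclear RNA depleted of rRNA does not select for one. Carry-over of transcripts without a tail into the poly(A) libraries was not measured.

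The stem-loop is shown first because it is the feature that the gene symbols did not use and that all members shared. A search of the 250 bases after the annotated stop codon, on the coding strand of hg38, found a 16-base stem-loop in 64 of 64 members and in 10 of 19855 other protein-coding genes (0.0504%). Most of these 10 carry histone symbols: H1-6, H2AX, H3-4, H3-7 and the unanalysed H2AC18, H2AC19, H3C2 and H3C3. BTBD10 and NOC4L do not. Its first base lay 23 to 63 bases past the stop codon, with a median of 36. The 16 bases took 10 forms, of which 7 are shown here in capitals with 5 bases on each side, and the genes are those with the highest level per kilobase or the changes described later.
H1-2: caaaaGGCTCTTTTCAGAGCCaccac
H2AC6: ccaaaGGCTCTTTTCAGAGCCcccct
H2AC11: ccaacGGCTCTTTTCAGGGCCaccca
H2AC20: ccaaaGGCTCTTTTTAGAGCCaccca
H2BC12: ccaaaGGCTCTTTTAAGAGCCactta
H2BC14: ccaaaGGCTCTTTTCAGAGCCgtcca
H3C6: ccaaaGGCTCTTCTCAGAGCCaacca
H3C8: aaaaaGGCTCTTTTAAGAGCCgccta
H3C10: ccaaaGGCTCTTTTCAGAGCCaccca
H4C3: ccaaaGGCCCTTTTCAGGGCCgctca
H4C8: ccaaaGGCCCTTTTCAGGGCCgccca
H4C9: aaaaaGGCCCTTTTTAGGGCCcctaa
In hg38 these lie at chr6:26055739-26055764 (H1-2, minus strand), chr6:26124664-26124689 (H2AC6, plus), chr6:27133510-27133535 (H2AC11, plus), chr1:149887386-149887411 (H2AC20, plus), chr6:27146361-27146386 (H2BC12, minus), chr6:27815464-27815489 (H2BC14, plus), chr6:26225591-26225616 (H3C6, plus), chr6:26270918-26270943 (H3C8, minus), chr6:27810511-27810536 (H3C10, plus), chr6:26104312-26104337 (H4C3, plus), chr6:26285126-26285151 (H4C8, minus) and chr6:27139649-27139674 (H4C9, plus). The form of H1-2, H2AC6, H2BC14 and H3C10 was carried by 36 members of the H1, H2A, H2B and H3 classes and by 0 H4 genes. The form of H4C3 and H4C8 was carried by 10 genes, all H4, and that of H4C9 by 4 H4 genes (H4C9, H4C12, H4C14 and H4C15). The form of H2BC12 and H3C8 was carried by 8 genes, among them 5 H2B genes, while H2AC11, H2AC20 and H3C6 each had a form of their own.

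The start regions separated the classes in another way. Of the members, 59 matched a RefSeq promoter window (GRCh38.p14, 250 bases before to 50 after the start). The octamer ATTTGCAT, searched on both strands, was in 1.8% of all 27305 windows, in 44.1% of the members' windows, in 78.6% of those of H2A and 77.8% of those of H2B, and in 0 of 5 H1 and 0 of 13 H4 windows. CCAAT was in 35.7% of all windows, in every H1, H2A, H2B and H3 window, and in 23.1% of the H4 windows, and TATAAA was in 3264 of the 27305 windows and in 66.1% of the members' windows. The 60 bases before the start of 3 H2B genes described later are shown with ATTTGCAT and TATAAA in capitals where they occur.
H2BC12: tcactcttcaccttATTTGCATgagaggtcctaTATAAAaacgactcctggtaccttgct
H2BC14: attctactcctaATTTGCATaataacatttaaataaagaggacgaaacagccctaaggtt
H2BC18: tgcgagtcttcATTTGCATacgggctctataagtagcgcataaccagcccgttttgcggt
They lie at chr6:27146859-27146918 (H2BC12, minus strand), chr6:27814962-27815021 (H2BC14, plus) and chr1:149812371-149812430 (H2BC18, minus). In these 3 the octamer began 46 to 49 bases before the start. Windows of neighboring genes overlap, as those of H2BC21 and H2AC20 or of H2AC14 and H2BC14 do, so the H2A and H2B shares are not counts of independent promoters.

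The exons over which read pairs were counted also differed between members. For 39 members the counted exons ended before the stem-loop or less than 100 bases past it, called compact here, and for 25 they ran at least 100 bases further, called extended. All 5 H1 genes were compact, as were 12 H2A, 7 H2B, 6 H3 and 9 H4 genes, and 11 of 18 H2B genes were extended. The leading genes are therefore compared as counts scaled to the library total (CPM) per kilobase of counted exon, CPM per kb. Shares of the summed CPM are not scaled to exon length, so longer models weigh more in them. Read pairs that map to several places were discarded in the authors' alignment, which bears on near-identical copies such as H4C14 with H4C15 and H3C14 with H3C15, and the counting as described sets no strand option, so overlapping genes such as H3C12 with H2AC17, H3C4 and H2AC7 with ENSG00000282988, H2BC15 with H2AC15 and H2AC16, and H2BC18 with FCGR1A cannot be told apart where they overlap.

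Library totals ran from 16439848 to 62953314 counts in mRNA and from 16175394 to 25103205 in nuclear RNA, and the 2 deepest were KCl 1h mRNA libraries. The 13 K562 markers had group means of at least 55.0 CPM in both fractions. Of the markers of lymphoid, fibroblast, epithelial and hepatocyte cells, EPCAM was at 90.96 ± 3.49 CPM in CTRL mRNA and 72.2 ± 9.07 in CTRL nuclear RNA and COL1A2 at 5.18 ± 2.79 and 14.01 ± 3.44, while CD3E, CD79A, MS4A1, PAX5, COL1A1, DCN, CDH1 and ALB had means of at most 0.528 CPM in both, with MS4A1 at 0. Library 3 had the lowest summed CPM of the members in 8 of 9 mRNA groups. The exception was JTE 18h, with 2348, 2681 and 2443 CPM in libraries 1, 2 and 3. The summed CPM of the H1 genes was 459.7, 709.5 and 434 in CTRL libraries 1, 2 and 3, but 684, 483 and 427 in IM 1h, 691, 466 and 449.5 in JTE 1h and 694, 450.1 and 454 in KCl 1h. In untreated mRNA it was thus library 2 that stood high, and after 1 h of each treatment library 1.

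In untreated cells histone genes took a larger share of the nuclear RNA than of the mRNA counts. The 64 members together took 0.159%, 0.194% and 0.117% of the counts of the CTRL mRNA libraries and 1.03%, 1.20% and 1.24% of those of the CTRL nuclear libraries. Of the 48 members that passed the low-count filter, 42 were higher in nuclear RNA (background 23.9% of 17905 genes tested) and 2, H4C14 and H4C15, were lower (background 21.0%). Members near 0 in 1 fraction passed this filter only through the other, so they had to differ, and these counts and medians are a description. A gene was called where its Benjamini-Hochberg adjusted p in edgeR's quasi-likelihood test was below 0.05 and its log2 fold change beyond 0.6 either way, and the value after ± beside a fold change is its standard error. The median log2 difference was 4.70 over the members and 0.02 over all genes. It was 7.38 over the 27 compact and 2.51 over the 21 extended members, and 6.98 over the compact members when those at or under 3 counts in each mRNA library were set to that floor. Fraction and library method cannot be told apart in this comparison. In these bulk samples fewer cells with a transcript and less of it per cell cannot be told apart either.

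Among the genes with the widest gap, H4C2 had 0.327, 0.21 and 0 CPM in the CTRL mRNA libraries and 229, 290.1 and 311 CPM in the nuclear libraries (log2 difference 10.15). H2AC12 had 0.218, 0.473 and 0.168 CPM against 236, 290.2 and 311 CPM (log2 difference 9.50), and H2AC20 had 0.491, 0.368 and 0.28 CPM against 279, 347 and 329.8 CPM (9.30). In all of these H2A and H4 genes the lowest nuclear library lay far above the highest mRNA library. H2AC21 had 1, 2 and 1 counts in the mRNA libraries and 5636 in the 3 nuclear libraries, a depth-adjusted ratio of 1203 (95% counting interval 470 to 4417, exact). H2AC4 had 2, 3 and 1 mRNA counts and 7567 nuclear counts, a ratio of 1077 (495 to 2936). These intervals cover counting error only.

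A few members were not called higher in nuclear RNA. H2BC12, a core H2B gene, had 339, 337 and 225 CPM in mRNA and 496, 574 and 597 CPM in nuclear RNA (log2 difference 0.49 ± 0.16, adjusted p = 0.0203, not called). H4C9 had 198, 202 and 134 CPM in mRNA and 202, 224 and 209.8 CPM in nuclear RNA (-0.14 ± 0.16, adjusted p = 0.447). H2BC6 (0.17) and H3C6 (0.78) were the other members that were not called. H4C15 was the member with the largest excess in mRNA, with 2.18, 2.10 and 0.728 CPM against 0.177, 0.269 and 0.303 CPM in nuclear RNA (log2 difference -3.12). H4C14 had 3.33, 5.62 and 1.40 CPM against 1.59, 1.53 and 0.808 CPM (-1.78), and its ranges overlapped.

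**Figure D1:**
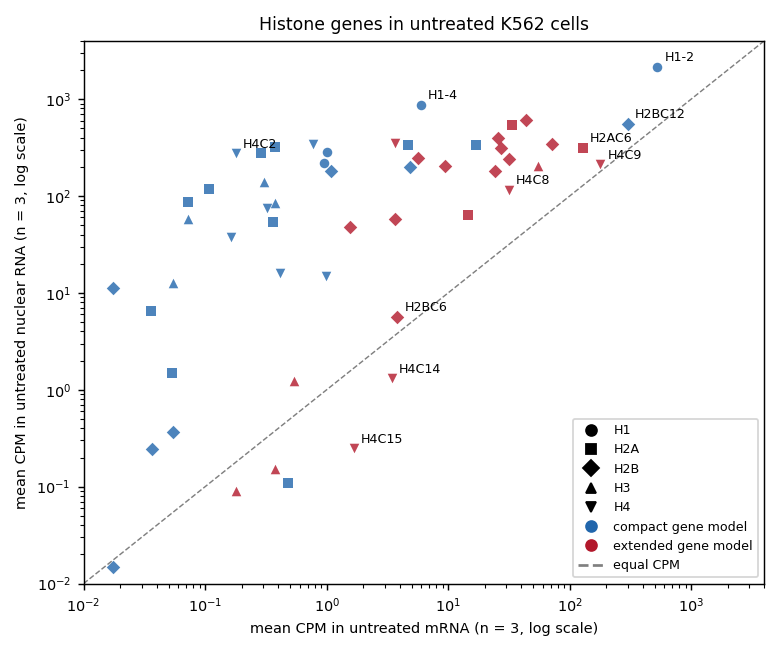
Mean CPM of 54 members in untreated mRNA (horizontal) and untreated nuclear RNA (vertical), both on log scales, for members with at least 1 count in both fractions. Shapes give the histone class and colors the gene model. Most points lie above the dashed line of equal CPM, and those farthest above it are compact models (blue). H2AC14, H2BC10, H3C14, H3C15, H4C14 and H4C15 lie below it.

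Per kilobase, H1-2, the main linker histone transcript here, led both fractions, with 820 ± 229 CPM per kb in CTRL mRNA and 3377 ± 326 in CTRL nuclear RNA (SD, n = 3). H2BC12 led the H2B class in both, with 789 ± 171 and 1458 ± 139 CPM per kb. The leading gene of the other classes differed between fractions. H2AC6 (76.5 ± 25.0 CPM per kb), H3C10 (44.4 ± 16.7) and H4C9 (138 ± 29.4) led in mRNA, and H2AC20 (817 ± 90.5), H3C13 (336 ± 42.1) and H4C3 (792 ± 123) led in nuclear RNA. The mRNA levels of H1-2 and H2BC12 lay within each other's spread. The mRNA signal was concentrated in few genes: H1-2, H2BC12, H4C9 and H2AC6 held 72.3% of the members' summed CPM, while the 4 highest in nuclear RNA, H1-2, H1-4, H2BC21 and H2BC12, held 36.5%. These shares use CPM not scaled to exon length. Per kilobase, H2BC21 was at 280 in CTRL nuclear RNA, below H2AC20 and H4C3.

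In mRNA the sums of the core classes were highest at JTE 18h. The summed CPM of the 5 H1 genes was 643, 611 and 458 at IM 18h and 503, 586 and 561 at JTE 18h, inside the CTRL range. For the 15 H2A genes it was 206, 259 and 131 in CTRL, 422, 380.4 and 305 at IM 18h and 462, 529 and 469 at JTE 18h. The H2A sums at 18 h of either drug lay above every CTRL library. The 18 H2B genes summed to 615, 647 and 402 CPM in CTRL and 828, 925 and 835 at JTE 18h. The 11 H3 genes summed to 66.00, 72.4 and 32.3 in CTRL, 133, 150.3 and 102 at IM 18h and 147, 208 and 159 at JTE 18h. The 15 H4 genes summed to 246, 248 and 170.1 in CTRL, 218, 246 and 189 at IM 18h and 408, 434 and 419 at JTE 18h. At JTE 18h the H2B, H3 and H4 sums were also above all CTRL libraries, whereas at IM 18h the H4 sums overlapped CTRL. These sums are described without a test.

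In nuclear RNA the summed level of all members overlapped CTRL in every treated group, and some classes lay below it. All members together summed to 10291, 11979.6 and 12380.2 CPM in CTRL, 10249.9, 10668 and 12037 at IM 1h, 8476, 9947 and 11253 at IM 18h, 9234, 10236 and 11504 at JTE 1h and 8847, 10732 and 10162 at KCl 1h. Library by library, the sums of all 4 treatments were below the CTRL library of the same number in all 3 libraries. The H1 sums were 3232, 3757 and 3652 in CTRL and 2413, 2920.0 and 3152.5 at IM 18h, and the H4 sums 1267, 1511 and 1569 and 955, 1108 and 1257, and in these classes the ranges did not overlap. The H3 sums were 453, 502 and 538 in CTRL and 379, 437 and 419.7 at KCl 1h, also below every CTRL library.

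**Figure D2:**
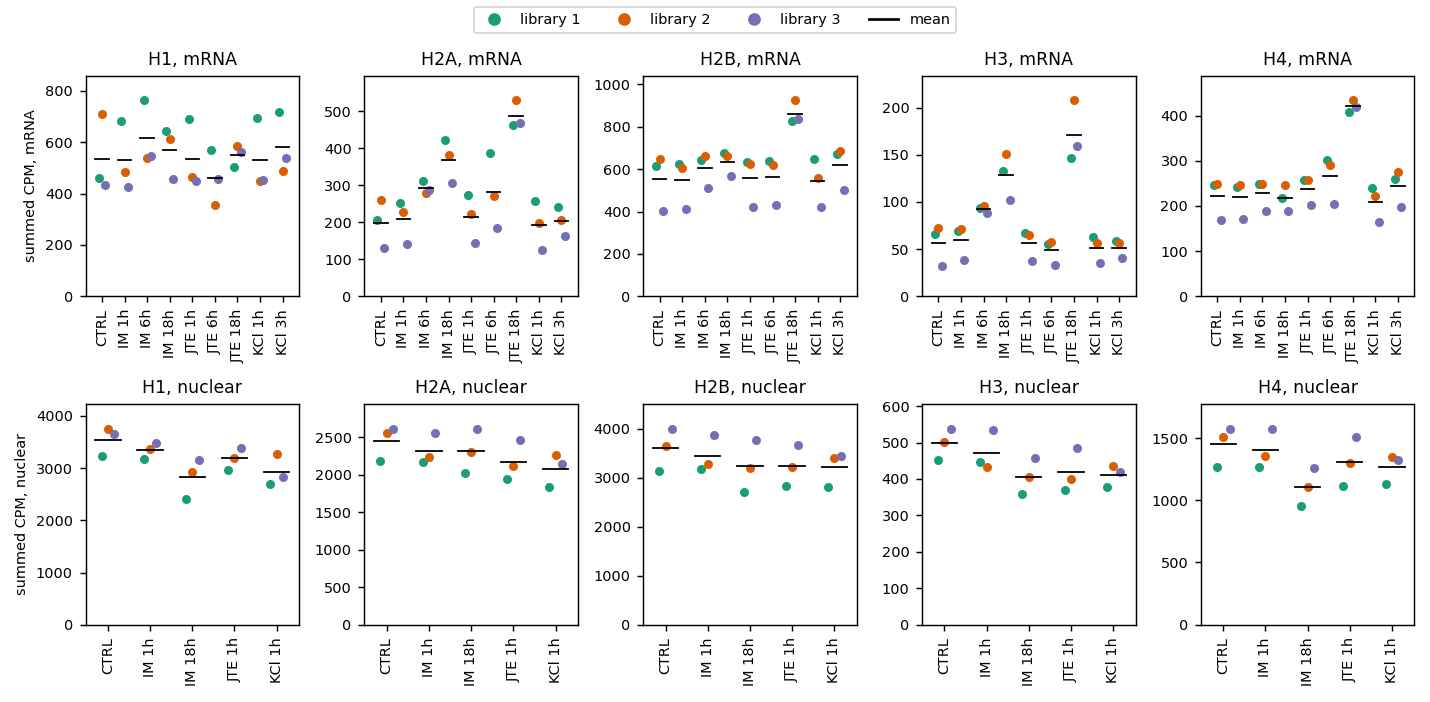
Summed CPM of the members of each histone class (columns) in mRNA (top row) and nuclear RNA (bottom row), by group. Each point is 1 library, colored by its number, and bars are means of 3; in mRNA the H2A, H2B, H3 and H4 sums of JTE 18h lie above all CTRL libraries, while the H1 sums overlap.

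After 18 h of imatinib the mRNA of many core histone genes was higher. A total of 42 members passed the filter in mRNA and 22 did not, mostly members with few or no counts. H3C13 and H3C14 passed only because of their JTE 18h libraries, and H2BC14 only because of KCl 3h, so these genes had to be high there and are given without p-values. H4C4, H2AC12 and H3C12 were under the filter level in all CTRL mRNA libraries and passed only through treated libraries. Their mRNA calls, and the counts that hold them, are therefore partly set by the filter, and these calls are also given without p-values. At IM 1h, 0 members were called by edgeR (background 0.0166% of 18095 genes in either direction), 0 had an unadjusted p below 0.05 and DESeq2 called 0. At IM 6h, 4 were higher (background 5.82%) and 0 lower (background 4.12%). At IM 18h, 16 of 42 were higher (background 17.2%) and 0 lower (background 13.2%). The 16 were 6 of 9 H2A, 5 of 15 H2B, 3 of 5 H3, 2 of 9 H4 and 0 of 4 H1 genes. The median log2 fold change of the members was 0.04, 0.24 and 0.60 at 1, 6 and 18 h, beside 0.0006, 0.04 and 0.04 over all genes, and the IM 6h median was 0.01843 without CTRL library 3. By class it was 0.27 for H1, 1.14 for H2A, 0.55 for H2B, 1.14 for H3 and 0.58 for H4 at IM 18h.

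H2AC11, a core H2A gene with an extended model, had 35.7, 44.3 and 20.1 CPM in CTRL, 63.7, 61.3 and 75.3 at IM 6h and 118, 109 and 98.8 at IM 18h (log2 fold change 1.67 ± 0.31, adjusted p = 0.000188). H2BC7 had 6.22, 7.99 and 2.69 CPM in CTRL and 26.5, 20.5 and 15.4 at IM 18h (log2 fold change 1.85 ± 0.42, adjusted p = 0.00114). For both genes every IM 18h library was above every CTRL library. The leading H3 mRNA, H3C10, which encodes core H3, had 63.3, 70.1 and 31.5 CPM in CTRL, 90.4, 93.1 and 84.5 at IM 6h and 128, 146 and 98.01 at IM 18h (log2 fold change 1.14 ± 0.31, adjusted p = 0.00547). H2AC13 had 19.96, 19.5 and 10.98 CPM in CTRL and 45.7, 49.5 and 31.9 at IM 18h (log2 fold change 1.30 ± 0.29, adjusted p = 0.000862). In these 2 genes as well CTRL and IM 18h did not overlap, and CTRL library 3 was the lowest.

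The other members with the largest rises at IM 18h were near the detection limit in untreated mRNA. H3C6 had 0.764, 0.683 and 0.168 CPM in CTRL and 2.30, 2.33 and 2.32 at IM 18h (log2 fold change 2.05 ± 0.55, adjusted p = 0.0041). H2AC12 had 0.218, 0.473 and 0.168 and 1.15, 1.25 and 0.963 CPM (log2 fold change 1.90 ± 0.46), and H4C4 had 0.382, 0.473 and 0.112 and 1.48, 1.03 and 1.19 CPM (log2 fold change 1.87 ± 0.43). All 3 reached no more than a few CPM. At IM 6h, H3C12 had 0.68, 0.839 and 1.71 CPM against 0.491, 0.473 and 0.168 in CTRL (log2 fold change 1.41 ± 0.47), and H2BC26 had 3.90, 2.88 and 3.47 against 1.75, 1.68 and 1.23 CPM (log2 fold change 1.08 ± 0.33, adjusted p = 0.0294). H2BC15 had 38.4, 38.1 and 41.9 CPM at IM 6h against 24.7, 25.1 and 22.6 in CTRL (log2 fold change 0.65 ± 0.13, adjusted p = 0.0012). H2AC11, at 0.94 (adjusted p = 0.0406), was the fourth gene called at IM 6h, and 0 of the 4 were called when only libraries 1 and 2 of each group were fitted, or when CTRL library 3 or IM 6h library 3 was omitted.

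The K562 markers, among them the globin genes HBG1 and HBZ, were called higher for 9 of 13 genes in mRNA and 8 of 13 in nuclear RNA at IM 18h, with medians of 1.11 and 0.96, and for 0 of 13 at JTE 18h. The background called higher was 17.2% in either fraction at IM 18h and 3.29% at JTE 18h. Of the fibroblast markers, COL1A1 was higher (log2 fold change 1.40 in mRNA and 2.42 in nuclear RNA) and COL1A2 lower (-1.88 and -2.33) at IM 18h. The part of these markers in the histone changes at IM 18h was not tested. Several of the most abundant members were not called at IM 18h. H1-2 had 452, 696 and 432 CPM in CTRL and 634, 598 and 448 at IM 18h (log2 fold change 0.06 ± 0.23, adjusted p = 0.868). H2BC12 had 264, 275 and 238 CPM (-0.25 ± 0.21) and H4C9 had 165, 184 and 151 CPM (-0.13 ± 0.20), both inside the CTRL range. In the direct comparison of IM 18h with IM 6h, edgeR called 0 members higher (background 2.48%) and 0 lower (background 1.93%), 12 had an unadjusted p below 0.05, DESeq2 called 1, and the fit of libraries 1 and 2 alone called 7. The median difference was 0.40, with 35 of 42 members above 0.

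After 18 h of JTE-607, 19 of 38 tested core histone genes were higher in mRNA and 0 of 4 linker histone genes were called. At JTE 1h, edgeR called 0 of 42 members, beside 0.387% of all genes called higher and 0.464% called lower; 3 members had an unadjusted p below 0.05 and DESeq2 called 1, H3C6. At JTE 6h, 7 members were higher (background 6.73%) and 1 lower (background 6.47%). At JTE 18h, 19 were higher (background 3.29%) and 0 lower (background 2.09%). The 19, with H3C13 among them, were 4 of 9 H2A, 6 of 15 H2B, 3 of 5 H3, 6 of 9 H4 and 0 of 4 H1 genes. H3C13 and H3C14 passed the filter only through the JTE 18h libraries, and H4C4 only through treated libraries. The counts and medians of the members, of H3 and of H4 at JTE 18h are therefore partly set by the filter. The median log2 fold change of the members was 0.05, -0.0029 and 1.15 at 1, 6 and 18 h, beside 0.01, 0.03 and -0.01 over all genes, and 40 of 42 were above 0 at 18 h. By class the median at 18 h was 0.03 for H1, 1.15 for H2A, 0.86 for H2B, 1.49 for H3 and 1.46 for H4.

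H4C8, a core H4 gene with an extended model, had 34.1, 31.3 and 29.01 CPM in CTRL, 32.7, 37.99 and 31.7 at JTE 1h, 57.7, 60.8 and 44.9 at JTE 6h and 152, 154 and 152 at JTE 18h. CTRL, JTE 6h and JTE 18h did not overlap, with a log2 fold change of 0.86 ± 0.16 (adjusted p = 0.000423) at 6 h and 2.21 ± 0.17 (adjusted p = 8.43e-09) at 18 h. H4C5 had 4.25, 3.99 and 2.63 CPM in CTRL and 13.9, 18.6 and 13.4 at JTE 18h (log2 fold change 2.00 ± 0.37, adjusted p = 0.00124). H4C4, compact and nearly silent in untreated mRNA, had 0.382, 0.473 and 0.112 CPM in CTRL and 3.30, 3.28 and 3.32 at JTE 18h (log2 fold change 3.25 ± 0.40). All JTE 18h libraries of these 3 H4 genes were above all CTRL libraries.

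H3C6 and H3C13 were the H3 genes with the largest rises at JTE 18h. H3C6 had 0.764, 0.683 and 0.168 CPM in CTRL, 2.60, 2.31 and 0.884 at JTE 1h, 3.30, 2.41 and 0.87 at JTE 6h and 6.01, 2.98 and 6.08 at JTE 18h (log2 fold change 3.13 ± 0.53, adjusted p = 0.00051). H3C13 had 0.491, 0.315 and 0.112 CPM in CTRL and 1.57, 1.22 and 1.77 at JTE 18h (log2 fold change 2.21 ± 0.45). Every JTE 18h library of both genes was above every CTRL library. H3C10, far more abundant, reached 136, 201 and 149 CPM at JTE 18h (log2 fold change 1.49 ± 0.32, adjusted p = 0.00423).

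Among H2A and H2B genes, H2BC18 had 10.5, 11.03 and 6.83 CPM in CTRL, 12.3, 14.04 and 8.43 at JTE 6h and 37.97, 38.6 and 37.6 at JTE 18h (log2 fold change 1.94 ± 0.24, adjusted p = 1.32e-05). H2BC9 had 3.49, 4.73 and 2.74 CPM in CTRL, 10.4, 7.29 and 7.10 at JTE 6h (log2 fold change 1.24 ± 0.24, adjusted p = 0.000454) and 11.6, 12.04 and 12.2 at JTE 18h. H2BC6 had 4.31, 4.20 and 2.97 CPM in CTRL, 7.42, 6.54 and 4.90 at JTE 6h (log2 fold change 0.78 ± 0.19, adjusted p = 0.00375) and 12.8, 10.8 and 14.4 at JTE 18h. These 3 H2B genes were called at JTE 18h, and H2BC9 and H2BC6 already at JTE 6h. H2AC6, the leading H2A gene in mRNA, had 131, 168 and 84.6 CPM in CTRL, 312, 205 and 138 at JTE 6h and 289, 316 and 288 at JTE 18h (log2 fold change 1.15 ± 0.32, adjusted p = 0.0271). The other called members at JTE 18h were H2AC11, H2AC13, H2AC14, H2BC7, H2BC17, H2BC21, H4C3, H4C11 and H4C14, with log2 fold changes from 0.86 to 2.00.

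H2BC8 was the only member called lower at JTE 6h. It had 31.7, 27.5 and 17.9 CPM in CTRL, 14.9, 15.6 and 10.9 at JTE 6h (log2 fold change -0.82 ± 0.23, adjusted p = 0.0129) and 38.7, 48.9 and 40.6 at JTE 18h (0.66 ± 0.22, not called). It was no longer called when CTRL library 1 or JTE 6h library 3 was left out, and H2BC6 lost its call at JTE 6h without CTRL library 3 and H3C6 without that library or JTE 6h library 1. H4C3, compact, had 0.873, 0.473 and 0.952 CPM in CTRL, 2.59, 2.20 and 2.20 at JTE 6h (log2 fold change 1.67 ± 0.31, adjusted p = 0.0003) and 1.57, 1.64 and 2.65 at JTE 18h. H2AC12, at 0.865 ± 0.356 CPM (SD, n = 3) against 0.286 ± 0.163 in CTRL, and H2BC14, with 22 counts in the 3 JTE 6h libraries against 2 in CTRL, were the other members called higher at JTE 6h. For H2BC14 the depth-adjusted ratio was 10.6 (95% counting interval 2.60 to 92.7, exact).

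Compared directly with JTE 6h, JTE 18h had 20 members higher (background 7.76%) and 1, H2BC14, lower (background 5.68%), with a median difference of 0.86 over the members and -0.04 over all genes. H3C13, which passed the filter only through JTE 18h, is among the 20. The extended members had a median of 1.21 with 14 of 22 called, and the compact members a median of 0.62 with 6 of 20 called higher. H3C13 had 0.295, 0.268 and 0.0458 CPM at JTE 6h and 1.57, 1.22 and 1.77 at JTE 18h (log2 fold change 2.79 ± 0.48). H4C14 had 2.53, 3.00 and 1.10 and 9.86, 10.8 and 9.39 CPM (log2 fold change 2.04 ± 0.46, adjusted p = 0.00295), and its near copy H4C15 had 0.884, 1.45 and 0.504 and 4.82, 5.17 and 3.37 CPM (log2 fold change 2.10 ± 0.48, adjusted p = 0.003). For all 3 the 6 h and 18 h libraries did not overlap. H4C4 (2.25) and H2AC13 (1.77, 18.03, 18.3 and 9.53 CPM at 6 h and 47.02, 70.3 and 54.3 at 18 h) completed the largest differences.

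**Figure D3:**
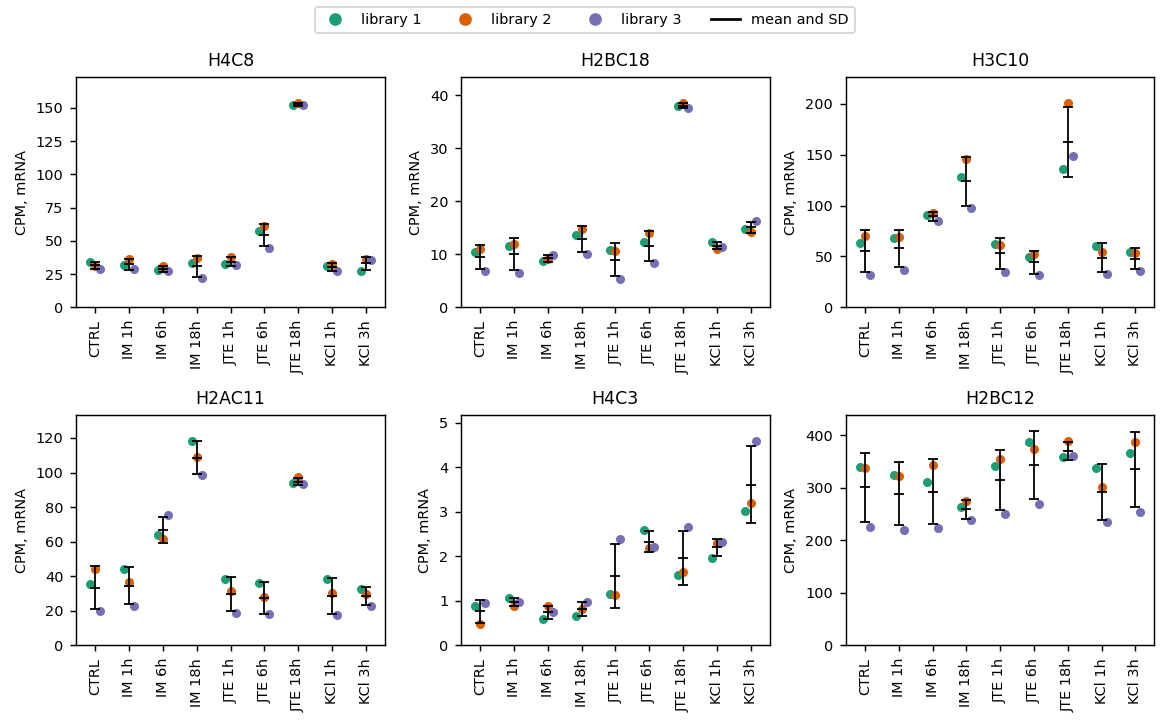
CPM of 6 members in the mRNA libraries of the 9 groups, with points for libraries, colored by number, and the mean with SD (n = 3). H4C8 was called at JTE 6h and JTE 18h, H2BC18 at JTE 18h and KCl 3h, H3C10 at IM 18h and JTE 18h, H2AC11 also at IM 6h, H4C3 at KCl 1h and KCl 3h and at JTE 6h and JTE 18h, and H2BC12 at no time point; the axes start at 0.

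Both drugs at 18 h were compared directly, since each raised H2A and H3 genes against the same CTRL libraries. IM 18h had 2 members higher than JTE 18h (background 16.7%) and 10 lower (background 13.6%). Among the 10 is H3C13, which passed the filter only through JTE 18h. H4C8 was at 33.2, 37.2 and 21.97 CPM at IM 18h against 152, 154 and 152 at JTE 18h (log2 fold change -2.27 ± 0.17, adjusted p = 6.185e-10), and H2BC18 at 13.6, 14.9 and 10.1 against 37.97, 38.6 and 37.6 (log2 fold change -1.53 ± 0.24, adjusted p = 1.89e-05). H3C13 had 0.274, 0.217 and 0.396 CPM at IM 18h (log2 fold change -2.31 ± 0.45). These genes were higher after JTE-607. H4C11, with 0.439, 0.76 and 0.453 CPM at IM 18h and 1.30, 1.70 and 1.22 at JTE 18h (log2 fold change -1.31 ± 0.40, adjusted p = 0.0102), and H4C4 (-1.38) went the same way. H2AC8, with 13.00, 9.61 and 8.89 CPM at IM 18h and 4.82, 6.87 and 4.64 at JTE 18h (log2 fold change 0.98 ± 0.19, adjusted p = 0.000239), and H2BC15, with 57.97, 55.3 and 40.1 and 30.8, 35.8 and 28.9 CPM (log2 fold change 0.72 ± 0.13, adjusted p = 9.18e-05), were higher after imatinib. For H2AC11 and H3C10 the difference was 0.23 ± 0.30 and -0.36 ± 0.31, neither called.

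At KCl 3h a larger share of members than of all genes was called higher in mRNA, and most members called under KCl were scarce. At KCl 1h, 2 members were higher (background 2.51%) and 1 lower (background 2.94%). At KCl 3h, 7 were higher (background 4.55%) and 0 lower (background 7.33%). H2BC14, H2AC12 and H3C12, which passed the filter only through treated libraries, are among the 7. The median log2 fold change was -0.05 and 0.12, beside 0.01 and 0.02 over all genes. H4C3 had 1.97, 2.29 and 2.33 CPM at KCl 1h (log2 fold change 1.55 ± 0.30, adjusted p = 0.0014) and 3.03, 3.20 and 4.59 at KCl 3h (log2 fold change 2.27 ± 0.30, adjusted p = 7.02e-06), with every library above the highest CTRL library. H2BC14 had 1, 0 and 1 counts in CTRL, 4, 18 and 12 at KCl 1h and 17, 15 and 23 at KCl 3h. Its depth-adjusted ratio to CTRL was 7.53 (95% counting interval 1.93 to 64.7) at 1 h and 23.9 (6.31 to 202) at 3 h. It is counted among the members called at both times, and its KCl 3h libraries are those through which it passed the filter.

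H2BC9 was the member called lower at KCl 1h, with 2.28, 1.62 and 1.44 CPM against 3.49, 4.73 and 2.74 in CTRL (log2 fold change -1.05 ± 0.25, adjusted p = 0.00791), a call lost without CTRL library 2 or KCl 1h library 3. At KCl 3h, H3C12 had 1.30, 1.16 and 2.07 CPM against 0.491, 0.473 and 0.168 in CTRL (log2 fold change 2.00 ± 0.45), and H2BC6 had 6.96, 6.58 and 9.53 against 4.31, 4.20 and 2.97 (log2 fold change 1.04 ± 0.18, adjusted p = 0.000253). Smaller rises were called for H2BC18, at 14.8, 14.2 and 16.2 CPM (log2 fold change 0.71 ± 0.24, adjusted p = 0.0449), H2AC8, at 7.64, 7.20 and 7.36 CPM against 4.69, 5.20 and 4.09 in CTRL (log2 fold change 0.70 ± 0.19, adjusted p = 0.0126), and H2AC12 (1.44). H2BC18 was not called in any of the 6 fits that each omitted a single CTRL or KCl 3h library, and H2AC8 was not called without CTRL library 3. From KCl 1h to KCl 3h, 4 members were higher (background 1.37%) and 0 lower (background 1.92%): H2BC6, from 5.34, 4.35 and 5.01 CPM at 1 h (log2 fold change 0.67 ± 0.18, adjusted p = 0.0243), H2BC9, to 3.79, 2.35 and 3.80 CPM (log2 fold change 0.94 ± 0.25, adjusted p = 0.023), H4C5, from 1.87, 1.84 and 2.12 to 4.47, 4.71 and 4.99 CPM (log2 fold change 1.30 ± 0.38, adjusted p = 0.0483), and H2BC14. With KCl 1h library 2, KCl 1h library 3 or KCl 3h library 3 omitted the count was 0. In the 6 fits that each omitted a KCl library, the call was lost in 6 for H4C5, 4 for H2BC9 and 3 for H2BC6.

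In nuclear RNA, 51 members passed the filter among 21929 genes. At IM 1h, edgeR called 0 of them (background 0.0456% in either direction), 1 had an unadjusted p below 0.05 and DESeq2 called 0. At JTE 1h, 3 were higher (background 7.0%) and 0 lower (background 1.51%), and at KCl 1h, 5 were higher (background 15.3%) and 0 lower (background 8.5%). The median over the members was -0.18 at JTE 1h and -0.18 at KCl 1h, with 7 of 51 above 0 in each, beside -0.01 and 0.02 over all genes. Leaving out 1 library at a time moved it from -0.306 (without JTE 1h library 3) to -0.06743 (without JTE 1h library 1) and from -0.2772 (without CTRL library 1) to -0.1125 (without KCl 1h library 1). The class medians ran from -0.19 to -0.14 at JTE 1h and from -0.35 to -0.14 at KCl 1h. In both treatments the share of members called higher was below the background, and the called members were scarce ones. H3C8 and H1-1 passed the filter only because of their KCl 1h libraries, and H2BC14 only through KCl 1h and JTE 1h, so these 3 of the 5 had to be high there and are given without p-values.

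H3C6 had 1.33, 1.03 and 1.31 CPM in CTRL, 4.22, 5.27 and 4.34 at JTE 1h (log2 fold change 1.91 ± 0.20, adjusted p = 3.37e-06) and 2.39, 1.84 and 1.71 at KCl 1h (log2 fold change 0.70 ± 0.22, adjusted p = 0.0205), and the KCl 1h call was lost without CTRL library 2 or KCl 1h library 1. H2BC6 had 4.69, 5.25 and 7.02 CPM in CTRL, 10.3, 10.9 and 11.6 at JTE 1h (log2 fold change 0.95 ± 0.15, adjusted p = 0.000249) and 8.52, 10.7 and 9.06 at KCl 1h (log2 fold change 0.76 ± 0.15, adjusted p = 0.0005165). H2BC14 had 5, 6 and 5 counts in CTRL, 16, 13 and 21 at JTE 1h (log2 fold change 1.51 ± 0.35) and 16, 18 and 16 at KCl 1h (log2 fold change 1.71 ± 0.35). The libraries of both treatments lay above CTRL for all 3 genes. H3C8 had 0 counts in each CTRL library and 30, 26 and 41 at KCl 1h, at least 11.3-fold higher when CTRL was set to 3 counts per library, while JTE 1h had 1, 0 and 4 counts. H1-1, at 5, 6 and 7 counts in CTRL, had 19, 17 and 20 at KCl 1h (log2 fold change 1.70 ± 0.39). The lymphoid marker CD79A was also higher in nuclear KCl 1h, at 1.39 ± 0.285 CPM against 0.125 ± 0.0326 in CTRL, and its part in these values was not tested. CD79A too passed the filter only through treated libraries, so its level is given as a description.

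Compared directly, KCl 1h had 2 members higher than JTE 1h (background 10.7%), H3C8 and H1-1, the 2 genes that passed the filter through KCl 1h, and 1 lower (background 5.24%), H3C6 (log2 fold change -1.20 ± 0.19, adjusted p = 8.92e-05). All 5 members called at KCl 1h start within 10000 bases downstream of a same-strand gene with at least 10 CPM in CTRL nuclear RNA: H2BC6 lies 710 bases past H2BC5, H2BC14 3744 past H3C10, H3C8 5794 past H4C8, H3C6 6716 past H2AC8 and H1-1 9083 past H4C2. Of all 51 tested members, 14 had such a neighbor. This position was looked at after the values were seen and is given as a description, and 3 of the 5 are the genes that passed the filter only through treated libraries. The distances run between the ends of the counted gene models, not from the stem-loops. The models of H2BC5, H4C8 and H3C10 extend 12747, 7522 and 769 bases past their stem-loops. The H2BC6 model begins at chr6:26172059 and its stem-loop at chr6:26184210.

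A group of 9 members had at most 6 counts in the 6 untreated libraries together: H2AC15, H2BC10, H3C4, H3C8, H3C11, H4C6, H4C7, H4C13 and H4C16. Their summed counts were 1 in CTRL mRNA, 0 to 4 in the IM and JTE groups, 49 at KCl 1h and 46 at KCl 3h. In nuclear RNA they were 8 in CTRL, 3 at IM 1h, 6 at IM 18h, 18 at JTE 1h and 191 at KCl 1h. These sums are not scaled for depth. The 2 deepest mRNA libraries were KCl 1h libraries, so 49 and 46 do not stand for equal levels. Beside H3C8, with 97 of these nuclear KCl 1h counts, H4C13 had 23, H4C16 22, H3C11 21, H2BC10 10, H4C7 10 and H4C6 8. The members were picked for low CTRL counts, so no test against CTRL was made. H2AC15 and H3C4 were listed at 0 in all 42 libraries. Their exons overlap those of H2BC15 and of ENSG00000282988, so these zeros set no bound on their level.

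In nuclear RNA at IM 18h more members were called lower than higher. In nuclear RNA 1 member, H3C6, was higher (background 17.2%) and 11 of 51 were lower (background 15.4%), with a median of -0.30 over the members and 0 over all genes. The share of members called lower was not far above the background, and the share called higher was below it. The 11 were 2 H1, 2 H2A, 2 H2B, 4 of 7 H3 and 1 H4 gene. H1-3, a linker histone gene, had 216, 215 and 229.6 CPM in CTRL and 77.6, 105 and 119.6 at IM 18h (log2 fold change -1.20 ± 0.13, adjusted p = 4.96e-07). H3C13, the leading H3 gene in nuclear RNA, had 120.0, 154 and 139.9 and 54.7, 89.6 and 83.1 CPM (log2 fold change -0.94 ± 0.16, adjusted p = 9.1e-05), and H3C12 had 72.5, 78.7 and 102 and 29.7, 45.2 and 61.2 CPM (log2 fold change -0.96 ± 0.27, adjusted p = 0.0106). In all 3 the IM 18h libraries lay below the CTRL libraries, and H3C12 lost its call without CTRL library 3.

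H2AC1 had 5.53, 6.64 and 7.52 CPM in CTRL and 2.76, 3.59 and 4.20 at IM 18h (log2 fold change -0.98 ± 0.19, adjusted p = 0.000322), and H2BC1 had 11.1, 10.5 and 12.5 and 4.88, 5.78 and 7.54 CPM (log2 fold change -0.98 ± 0.16, adjusted p = 5.61e-05). H4C8, raised by JTE-607 in mRNA, had 112, 121 and 114 nuclear CPM in CTRL and 69.3, 72.8 and 72.8 at IM 18h (log2 fold change -0.76 ± 0.09, adjusted p = 1.43e-06). H1-5 (-0.68), H2AC4 (-0.77), H2BC8 (-0.66), H3C1 (-0.91) and H3C7 (-0.85) were the other members called lower. H3C6, the member called higher, had 2.46, 2.44 and 2.66 CPM (log2 fold change 0.97 ± 0.22, adjusted p = 0.000995). Without IM 18h library 3 the count was 21. Of the 12 called, 9 lower members were compact among 30 tested, and 2 lower and H3C6 were extended among 21.

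The difference between fractions was then tested itself, as an interaction over the 12 CTRL and treated libraries. For IM 18h, 3 of 49 members had a lower nuclear than mRNA change (background 0.0351% of 19967 genes) and 0 a higher one (background 0.0551%), with a median of -0.89 over the members and -0.02 over all genes, and 47 of 49 below 0. H2AC8 had 4.69, 5.20 and 4.09 mRNA CPM in CTRL and 13.00, 9.61 and 8.89 at IM 18h, but 295, 349.8 and 363 and 241, 277 and 317 CPM in nuclear RNA (interaction log2 fold change -1.42 ± 0.21, adjusted p = 0.00775). H2BC26 had 1.75, 1.68 and 1.23 and 4.55, 4.56 and 3.23 CPM in mRNA and 42.7, 51.1 and 49.1 and 37.7, 54.05 and 46.1 in nuclear RNA (log2 fold change -1.43 ± 0.26, adjusted p = 0.0443). H2BC9 had 6.69, 6.41 and 8.78 mRNA CPM at IM 18h and 57.9, 54.96 and 61.1 and 37.6, 40.7 and 53.2 nuclear CPM (log2 fold change -1.38 ± 0.25, adjusted p = 0.0443). These 3 genes were called higher in mRNA and were not called in nuclear RNA, where H2BC9 had an adjusted p of 0.00257 at a log2 fold change of -0.47. H2BC26 and H2BC9 lost the call in 10 of 12 fits that left out 1 library. With the replicate number as a block, 13 members were called, and with DESeq2 10.

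For the 1 h treatments at most 2 members were called in this test. For IM 1h, edgeR called 0 of 49 members (0.0% of 19420 genes were called at all), 0 had an unadjusted p below 0.05 and DESeq2 called 0. For JTE 1h, edgeR called 0 of 51, beside 0.0555% of genes called higher and 0.00504% lower, 5 had an unadjusted p below 0.05 and DESeq2 called 0. For KCl 1h, 2 of 52 members had a lower nuclear than mRNA change (background 0.0806%) and 0 a higher one (background 0.588%). H4C3 had 284, 367 and 383 nuclear CPM in CTRL and 269.5, 341 and 319.5 at KCl 1h, beside its rise in mRNA (interaction log2 fold change -1.80 ± 0.26, adjusted p = 0.00339). H3C12 had 72.5, 78.7 and 102 and 52.2, 56.98 and 73.7 nuclear CPM, and 0.491, 0.473 and 0.168 and 0.986, 0.874 and 0.8 mRNA CPM (interaction log2 fold change -1.77 ± 0.36, adjusted p = 0.0337). H3C12 was not called in 7 of the 12 fits that each omitted a single library.

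**Figure D4:**
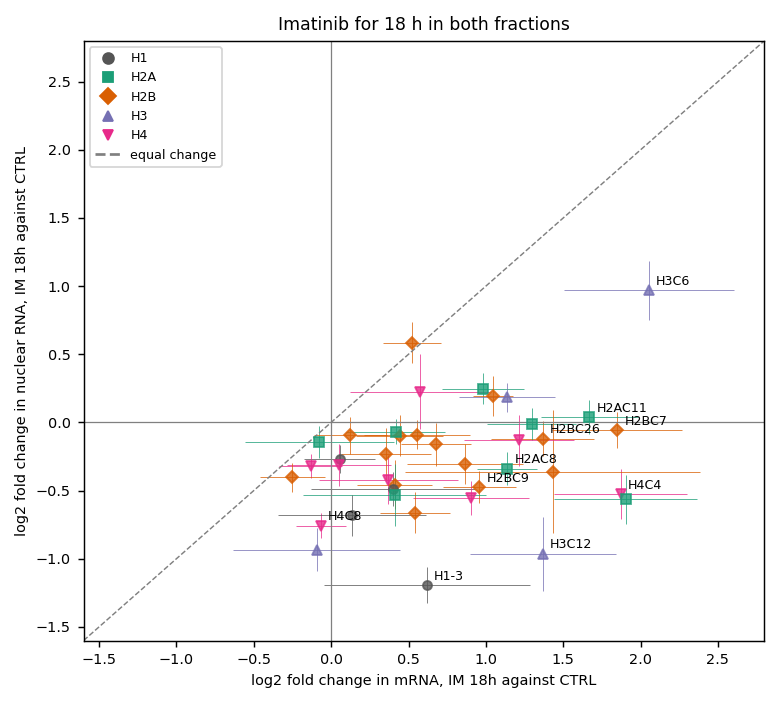
Log2 fold change at IM 18h against CTRL in mRNA (horizontal) and nuclear RNA (vertical) for the 39 members tested in both fractions, with SE bars and shapes and colors by class. For 38 of 39 the nuclear change is below the dashed line of equal change, and H3C6 is high on both axes.

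**Figure D5:**
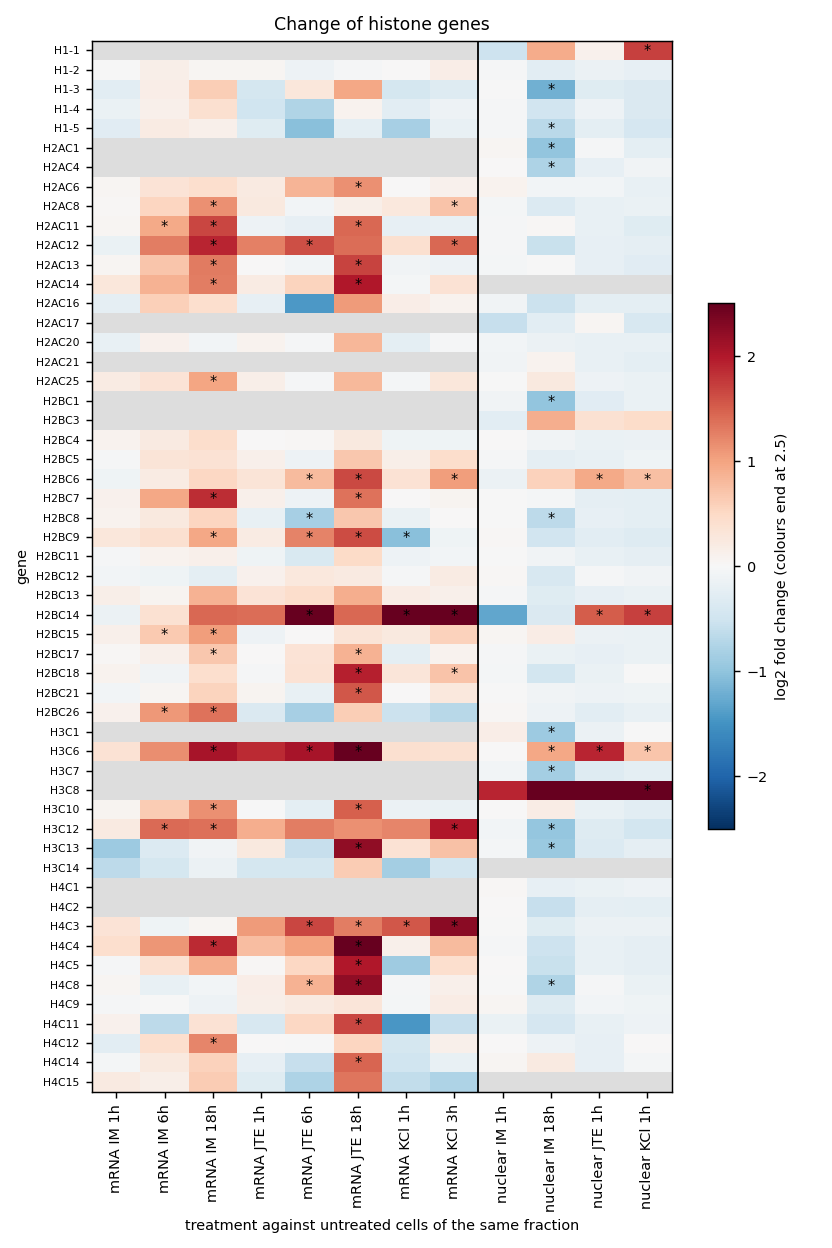
Log2 fold change of 54 members (rows) in the 12 comparisons with CTRL (columns, mRNA left of the line and nuclear RNA right of it), with colors ending at 2.5, called members marked by a star and untested ones in grey. Red fills the JTE 18h and IM 18h mRNA columns, and blue stars stand mainly in the nuclear IM 18h column.

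The replacement and variant histones are given beside the members, a list that includes H2AX, whose gene also held the stem-loop, and CENPA, the H3 of centromeres. Of 11 replacement histone genes, 9 were tested in mRNA. At JTE 18h edgeR called 0 (background 3.29% higher and 2.09% lower) and DESeq2 called 0. There 4 had an unadjusted p below 0.05, and the median was 0.00034. At IM 18h, 1 was higher (background 17.2%) and 1 lower (background 13.2%). At JTE 6h, 2 of the 9 were called lower (background 6.47%), H2AX (log2 fold change -0.83 ± 0.24, adjusted p = 0.0147) and CENPA (log2 fold change -0.70 ± 0.21, adjusted p = 0.0191). At IM 18h H3-3A was called higher (log2 fold change 0.68 ± 0.11, adjusted p = 3.28e-05) and H3-3B, the other gene for the same H3.3 protein, lower, from 513.5 ± 41.8 to 282 ± 32.8 CPM (log2 fold change -0.90 ± 0.11, adjusted p = 7.565e-07). H2AJ was called higher under KCl in both fractions, at 1.08 ± 0.145 CPM in mRNA at 1 h against 0.0369 ± 0.0319 in CTRL and 1.70 ± 0.158 CPM in nuclear RNA against 0.0615 ± 0.0247. It was near 0 in CTRL and passed the filter only through treated libraries. Its calls are therefore partly set by the filter and are given as a description.

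Genes that process and degrade histone mRNA were examined next. Of 15 genes for 3' end processing, 14 were tested, and edgeR called 0 at any JTE-607 time point in either fraction, where 0 to 5 had an unadjusted p below 0.05 and DESeq2 called 0. The background at these time points was at most 7.0% higher and 6.47% lower. CPSF3 itself was at 152 ± 13.8 CPM in CTRL mRNA and 157 ± 4.47 at JTE 18h (log2 fold change -0.02 ± 0.10, adjusted p = 0.926), and SLBP at 156 ± 10.5 and 154 ± 10.4 CPM (log2 fold change -0.08 ± 0.09, adjusted p = 0.674). At IM 18h, 2 of the 14 were higher (background 17.2%) and 4 lower (background 13.2%) in mRNA. In nuclear RNA at IM 18h, 1 was higher (background 17.2%) and 3 lower (background 15.4%). LSM10 and LSM11, a pair of U7 snRNP proteins, went opposite ways: LSM10 was at 30.3 ± 1.85 CPM in CTRL mRNA and 14.3 ± 1.64 at IM 18h (log2 fold change -1.12 ± 0.13, adjusted p = 3.53e-07), and LSM11 at 26.99 ± 4.31 and 54.2 ± 12.7 CPM (log2 fold change 0.97 ± 0.16, adjusted p = 3.79e-05). Of 8 decay genes, XRN1, the main cytoplasmic 5'-3' exonuclease, was higher at IM 18h (log2 fold change 1.29 ± 0.22, adjusted p = 7.355e-05) and PNPT1 lower (log2 fold change -1.42 ± 0.14, adjusted p = 7.39e-08). In nuclear RNA at IM 18h XRN1 was again higher (log2 fold change 1.04 ± 0.17, adjusted p = 6.305e-05), and PNPT1 (log2 fold change -1.62 ± 0.15, adjusted p = 9.36e-08) and ERI1, a 3'-5' exonuclease that trims histone mRNA ends, were lower (log2 fold change -0.71 ± 0.13, adjusted p = 0.000105).

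Cell cycle genes were tested for the same libraries, because histone transcription follows S phase. Of 29 S phase genes, 0 were higher and 2 lower (GINS4 and RFC4) at JTE 18h, with a median of 0.06, and 3 were higher and 1 lower at IM 18h, with a median of -0.06. Of 23 G2 and M phase genes, 0 were higher and 2 lower (CDC20 and PLK1) at JTE 18h, and 5 were higher and 0 lower at IM 18h. The background was 3.29% higher and 2.09% lower at JTE 18h and 17.2% and 13.2% at IM 18h, where the S phase shares lay below it. At JTE 6h, 1 S phase gene was higher (background 6.73%) and 3 were lower (background 6.47%), among them RRM2 (log2 fold change -0.85 ± 0.15, adjusted p = 0.000249). Of 14 histone chaperone genes, edgeR called 0 in each of the 8 mRNA and 4 nuclear comparisons with CTRL, with medians between -0.04 and 0.17. Among them 0 to 6 had an unadjusted p below 0.05, and DESeq2 called 0. The part of these genes in the histone values was not tested.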

How the data were processed

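Poly(A) mRNA (27 libraries) and nuclear RNA depleted of rRNA (15 libraries) of K562 cells were sequenced. The authors trimmed and deduplicated the read pairs without molecular identifiers, aligned them with STAR to hg38 (GRCh38.p14 in the submitters' processing notes), kept uniquely mapped pairs, and counted pairs over exons per gene with featureCounts; the deposited values are raw counts. The annotation release is not given in the sources used here. Symbols and stop codons came from GENCODE 44, counted exons and their lengths from the coordinates deposited with the counts, and promoters from RefSeq.

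Counts were tested in R 4.3.3 with edgeR 4.0.16 (filterByExpr, TMM, robust quasi-likelihood F test, Benjamini-Hochberg adjustment over all genes tested). All libraries of a fraction entered 1 fit; the interactions used 12 libraries and the untreated comparison 6. The standard error was the log2 fold change divided by the square root of F. CPM are counts scaled to the library total. Library totals were 16439848 to 62953314 in mRNA and 16175394 to 25103205 in nuclear RNA, and counting intervals have a level of 95%. The scripts were tested on simulated data. DESeq2 1.42.0, other scalings, filters, the replicate block and leaving out libraries were alternatives.

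The members and lists were chosen with earlier results of these data known. Values in every library are given for the leading member per kb of each class in each untreated fraction and, in each comparison, for up to 5 called members per direction with a mean of at least 1 CPM in the higher group. The other genes given by library, among them H1-1, H2BC14 and further called members, were chosen after their values were seen. In nuclear RNA libraries of the same number deviated together from their group means (r = 0.2326 to 0.8897 with CTRL), so the numbers were taken to pair the nuclear libraries. Results for 3 genes of the comparison lists are not reported here.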

Additional observations from a re-analysis of the deposited data

Results flagged for a closer look

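The nuclear and the mRNA change under IM 18h differed by the interaction test in edgeR for 3 members, with a nuclear minus mRNA log2 difference of -1.43 for H2BC26, -1.42 for H2AC8 and -1.38 for H2BC9. Under KCl 1h the same test called 2 members, H4C3 at -1.805 and H3C12 at -1.77. Between times of the same treatment, 21 members differed from JTE 6h to JTE 18h, and 4 from KCl 1h to KCl 3h. With 3 libraries per group, no library was examined as an outlier.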

How the results depend on the processing

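Of 351 counts of called members and medians recomputed under an alternative other than leaving out a library, 324 stayed within the limit set for no change, 27 moved past it and 0 reversed; their causes were not tested. With the replicate number as a block, 7 members were called at IM 6h (4 without it), 1 at JTE 1h (0), 1 from IM 6h to IM 18h (0) and 13 in the IM 18h interaction (3). In mRNA the deviations from the group mean correlated with those of the CTRL library of the same number at r = 0.05459 to 0.8762 for library 3 but at -0.3611 to 0.07581 for libraries 1 and 2, and the H1 sum was highest in library 1 in 7 of 8 treated groups and in library 2 in CTRL. For library 3, r was 0.8461 to 0.8762 in the 1 h groups, 0.1229 at IM 18h and 0.05459 at JTE 18h. Whether the 18 h libraries differ from CTRL in their preparation was not tested. The numbers therefore did not pair all mRNA libraries by the rule used, the numbering of the CTRL libraries was not tested, and no pairing was changed. The block changed no call within nuclear RNA. Libraries 1 and 2 alone, a choice made after seeing the data, gave 0 at IM 6h, 1 at JTE 1h, 3 at KCl 3h (7 with all libraries), 7 from IM 6h to IM 18h and 1 from KCl 1h to KCl 3h (4). DESeq2 gave 1 at JTE 1h, 1 from IM 6h to IM 18h and 10 in the IM 18h interaction. Without the low-count filter the counts were 1 at JTE 1h, 5 at KCl 1h (3), 2 from IM 6h to IM 18h, 8 in nuclear KCl 1h (5), 8 in nuclear KCl 1h against JTE 1h (3), 15 in the IM 18h interaction and 1 in that of JTE 1h (0). With only the libraries of the 2 groups they were 3 at JTE 6h (8) and 1 at KCl 1h. With no fold change threshold they were 1 from IM 6h to IM 18h, 24 in nuclear IM 18h (12) and 9 in nuclear KCl 1h. Library totals gave 1 in the KCl 1h interaction (2) and a median of 5.085 for untreated nuclear RNA against mRNA (4.70), which was 3.967 without the filter.

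Leaving out 1 library at a time gave 0 to 3 called members at IM 6h, 1 to 5 at KCl 1h, 0 to 1 from IM 6h to IM 18h, 0 to 3 from KCl 1h to KCl 3h, 10 to 21 in nuclear IM 18h, 1 to 6 in the IM 18h interaction and 1 to 2 in that of KCl 1h. It was 0 at IM 6h without CTRL or IM 6h library 3, 1 at KCl 1h without CTRL library 2 and 5 without KCl 1h library 1, 0 from KCl 1h to KCl 3h without KCl 1h library 2 or 3 or KCl 3h library 3, and 21 in nuclear IM 18h and 6 in the IM 18h interaction without nuclear IM 18h library 3. The median ranged from 0.3208 to 0.9154 at IM 18h and from -0.5371 to -0.289 for IM 18h against JTE 18h, from 0.01843 (without CTRL library 3) to 0.4309 (without CTRL library 2) at IM 6h, from -0.306 (without JTE 1h library 3) to -0.06743 (without library 1) in nuclear JTE 1h, from -0.2772 (without CTRL library 1) to -0.1125 (without KCl 1h library 1) in nuclear KCl 1h, from -0.4035 to -0.1947 in nuclear IM 18h and from 0.07099 to 0.4522 from KCl 1h to KCl 3h. Against CTRL it changed sign at IM 1h, JTE 1h, JTE 6h, KCl 1h and KCl 3h in mRNA (-0.04592 to 0.4017 at KCl 3h) and at IM 1h in nuclear RNA. Members at few counts in CTRL mRNA, among them H4C4, H3C13 and H2BC14, have fold changes limited by depth.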
